A study of Homo sapiens with 12 samples.

Results

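The genes that sense double-stranded RNA and pass the signal on were followed across the 6 conditions of a FAT1 knockdown experiment in oral squamous cell carcinoma (OSCC) cells. The 10 symbols were taken from the count table: the sensors DDX58 (the older symbol of RIGI, which encodes RIG-I), IFIH1 (MDA5), DHX58 (LGP2), TLR3 and EIF2AK2 (PKR), the adaptors MAVS and TICAM1 (TRIF), the kinase TBK1, and the transcription factors IRF3 and IRF7. All 10 were found among the 19225 entries of the table, and all 10 passed the filter on low counts, which left 14360 genes for testing. The choice was made by function, because an siRNA is itself an RNA duplex, but with earlier results of these data known.

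RIG-I and MDA5 are helicases that patrol the cytosol. On binding double-stranded RNA they engage MAVS on mitochondria, while TLR3 sits in endosomes and signals through TRIF. Both routes reach TBK1, which phosphorylates IRF3 and IRF7, and these switch on interferons. PKR instead halts translation by phosphorylating eIF2α. Several of these genes, among them those for RIG-I, MDA5, LGP2, PKR and IRF7, are themselves switched on by interferon, so that their mRNA level is also a readout of the pathway.

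HN6 and HN30 are established human OSCC cell lines. Poly(A) RNA was collected 24 h after lipid transfection with a scrambled siRNA (NC) or with 1 of 2 siRNAs against FAT1, siFAT1-1 and siFAT1-2. Each condition had 2 repeats, labelled time 1 and time 2, giving 12 libraries: 4 of NC and 8 of FAT1 knockdown (KD). Every library came from cells that had received a duplex and the transfection reagent. Cells without a duplex were not analysed here, so a level in NC is the level with the scrambled duplex and not a resting level. Nothing beyond the time label of each repeat is given for how independent the cultures were.

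Total counts ran from 26430049 to 47639010 per library. Across genes, the log2 CPM of paired repeats correlated least in HN6 NC (Pearson's r 0.947) and most in HN30 siFAT1-1 (0.99). FAT1, the targeted gene, had 56.8 and 66.8 CPM (read counts scaled to the total of the library) in the HN6 NC libraries and 7.6 to 21.4 CPM in the HN6 KD libraries, and 13.6 and 14.8 against 4.85 to 10.8 CPM in HN30. Of 8 squamous markers, 8 in HN6 and 7 in HN30 had a median above 1 CPM. The summed level of 3 markers of plasmacytoid dendritic cells, the classical interferon producers, stayed between 0.0253 and 0.883 CPM, with CLEC4C at 0 in every library. The 6 leukocyte markers summed to 24.4 to 123 CPM, with PTPRC at 0 in every HN6 library. Their part in the results was not tested. In bulk RNA, fewer cells that express a gene and less RNA of it per cell cannot be told apart.

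NC repeat 2 of HN6 stood apart in its GC dependence. Among 14200 genes with a transcript GC value, split into 5 equal bins, the AT-richest bin had a median log2 difference of -0.94 between HN6 NC repeat 2 and repeat 1, while the other 5 conditions had medians of -0.0046 to 0.23 in that bin. The members fall at both ends of this scale. TBK1 (37.4% GC), TLR3 (37.6%), EIF2AK2 (39.2%) and DDX58 (39.8%) lie in the AT-richest bin, and IRF7 (66.8%), TICAM1 (63%) and IRF3 (61.5%) lie in the GC-richest. Some results that rest on this library are therefore given with and without it, or with the GC dependence removed. Others are given with it only.

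By position on GRCh38 (GENCODE 44), TLR3 lies at chr4:186068911-186088073, on the chromosome that also holds FAT1 (chr4:186587794-186726722), with 499720 bases between them. DDX58 lies at chr9:32455302-32526208. IFIH1 (chr2:162267074-162318684) and EIF2AK2 (chr2:37099210-37157522) share chromosome 2, and TICAM1 (chr19:4815932-4831712) and IRF3 (chr19:49659569-49665875) share chromosome 19. DHX58 is at chr17:42101404-42112714, MAVS at chr20:3846799-3876123, IRF7 at chr11:612553-615983 and TBK1 at chr12:64452090-64502114.

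The factor complex that interferons activate binds a repeated GAAA element. The pattern GAAANNGAAA was searched on both strands in RefSeq promoters of GRCh38.p14, each running from 250 bases before to 50 after a gene's start, and 3.57% of 35116 promoters held it. Promoters of 7 of the 10 genes were matched, and 3 of the 7 held the pattern. They are shown because this element is what interferon-stimulated promoters are known for, and the members are read below beside such genes. Each window is 30 bases, on the strand of the gene, with the pattern in capitals; in TLR3 it reads on the opposite strand.

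IFIH1, chr2:162318686-162318715, minus strand: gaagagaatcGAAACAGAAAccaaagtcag
EIF2AK2, chr2:37156967-37156996, minus strand: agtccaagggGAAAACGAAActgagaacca
TLR3, chr4:186069142-186069171, plus strand: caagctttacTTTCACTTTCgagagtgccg

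The patterns begin 21, 6 and 4 bases before the RefSeq start of IFIH1, EIF2AK2 and TLR3. IFIH1 held 2 further matches that overlap each other, beginning 153 and 159 bases before the start on the opposite strand. The DDX58, MAVS, TICAM1 and TBK1 windows held no match, which says only that these letters are not in those windows. A match is a description of the sequence and not evidence that a factor binds there.

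Levels between genes were compared per kilobase of annotated exon (CPM per kb). The length was the union of all annotated exons, from 2612 nt for IRF7 to 14716 nt for TBK1, and the order depends on this choice. In HN6 it also includes NC repeat 2, the library with few reads of AT-rich genes. In the HN6 NC libraries the transcription factors and adaptors stood highest: IRF7 at 49.6 ± 36.9 (SD, n = 2), IRF3 at 35.6 ± 8.2, MAVS at 26.1 ± 5.09 and TICAM1 at 21.9 ± 4.87 CPM per kb. The sensors followed at 6.01 ± 1.25 for EIF2AK2, 5.48 ± 3.82 for DHX58, 2.44 ± 0.28 for DDX58 and 2 ± 0.812 for IFIH1, with TBK1 at 2.02 ± 2.36 and TLR3 last at 0.129 ± 0.0755. In that order the ranges of neighbours were separate between IRF3 and MAVS, TICAM1 and EIF2AK2, DHX58 and DDX58, and IFIH1 and TLR3, and overlapped elsewhere. In the HN30 NC libraries MAVS (20.7 ± 2.67), TICAM1 (19.8 ± 5.17), IRF3 (19.2 ± 1.48), IRF7 (15.7 ± 11.7), DDX58 (14 ± 10.2), IFIH1 (10.9 ± 4.87) and EIF2AK2 (8.73 ± 4.08) formed an unbroken series of overlapping neighbours. TBK1 (2.93 ± 0.273) lay below them, and DHX58 (1.27 ± 0.6) and TLR3 (1.24 ± 0.271) lay below TBK1 with overlapping ranges.

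**Figure D1:**
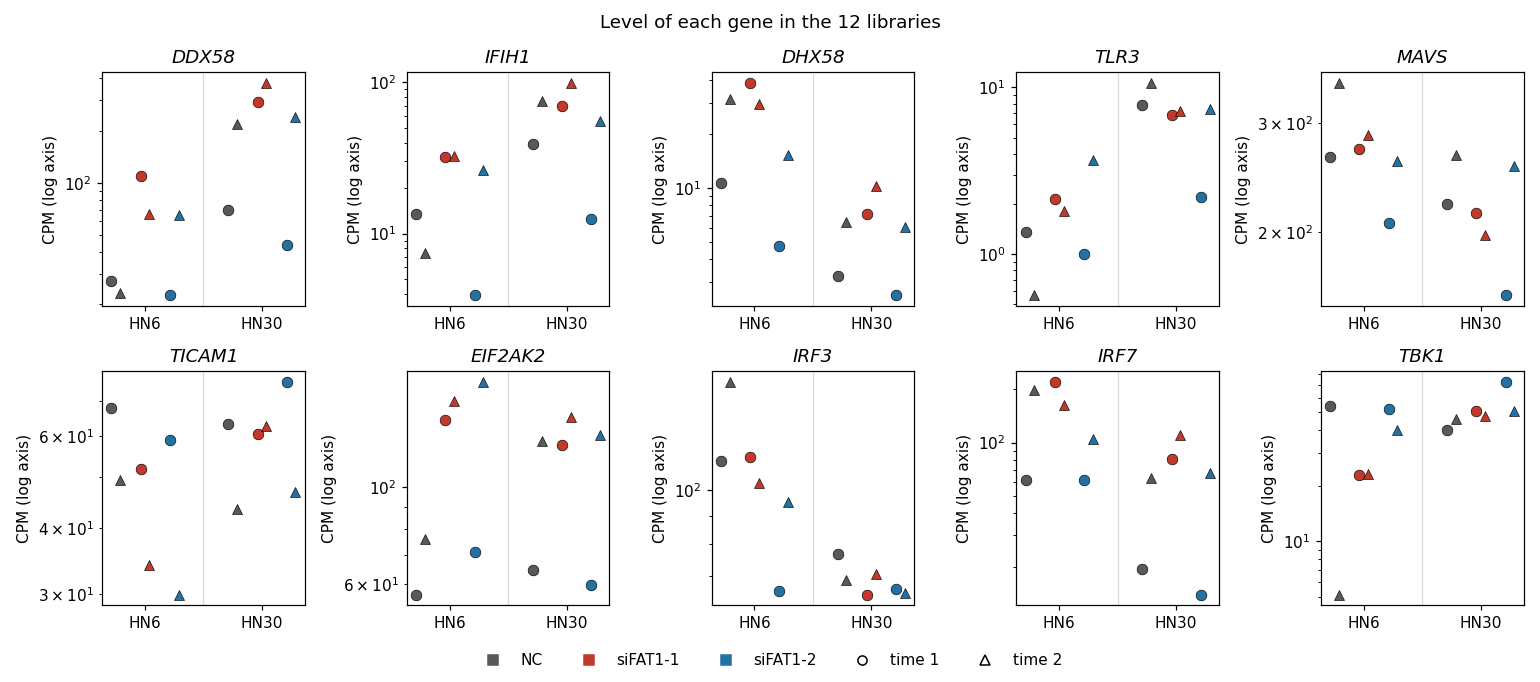
Level of each of the 10 genes in CPM on a log axis, 1 panel per gene, with HN6 on the left and HN30 on the right of each panel. Each symbol is 1 library, grey for NC, red for siFAT1-1 and blue for siFAT1-2, a circle for time 1 and a triangle for time 2; the blue circle is the lowest HN30 point for 7 of the 10 genes.

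DDX58, the gene of RIG-I, had the highest estimate of the 10 members for siFAT1-1 against NC. In HN6 it was at 27.3 and 23.2 CPM in NC (time 1 and time 2), 109 and 66 CPM with siFAT1-1, and 22.5 and 65.6 CPM with siFAT1-2. In HN30 it was at 69.9 and 219 CPM in NC, 293 and 378 CPM with siFAT1-1, and 44 and 239 CPM with siFAT1-2. Both siFAT1-1 libraries lay above both NC libraries in each line, whereas the siFAT1-2 libraries spanned the NC range and ran past it at time 2. The log2 fold change over both lines was 1.49 (SE 0.51, 2.8-fold) for siFAT1-1 against NC and 0.38 (SE 0.5) for siFAT1-2, with edgeR adjusted p = 0.145 and 0.659 over all genes tested.

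IFIH1, which encodes the sensor of long duplexes, had a similar layout at a lower level. In HN6 it was at 13.5 and 7.48 CPM in NC, 32.1 and 32.8 CPM with siFAT1-1, and 3.9 and 26.3 CPM with siFAT1-2. In HN30 it was at 39.1 and 75.1 CPM in NC, 70.1 and 99.7 CPM with siFAT1-1, and 12.5 and 55.1 CPM with siFAT1-2. The siFAT1-1 and NC libraries were separate in HN6 and overlapped in HN30, and siFAT1-2 at time 1 was the lowest library of each line. The log2 fold change was 1.05 (SE 0.57) for siFAT1-1 against NC, edgeR adjusted p = 0.336, and -0.15 (SE 0.56) for siFAT1-2, edgeR adjusted p = 0.883.

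DHX58 encodes LGP2, a helicase without signalling domains that tunes the other cytosolic sensors. It was at 10.6 and 31.3 CPM in NC, 38.8 and 29.4 CPM with siFAT1-1 and 4.76 and 15.3 CPM with siFAT1-2 in HN6. In HN30 it was at 3.23 and 6.47 CPM in NC, 7.17 and 10.3 CPM with siFAT1-1, and 2.51 and 6.06 CPM with siFAT1-2. The siFAT1-1 libraries lay above both siFAT1-2 libraries in each line, and above both NC libraries in HN30 but not in HN6. The log2 fold change was 0.77 (SE 0.45) for siFAT1-1 and -0.61 (SE 0.46) for siFAT1-2 against NC, with edgeR adjusted p = 0.378 and 0.403.

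IRF7, the interferon-inducible factor that amplifies the response, was at 61.5 and 198 CPM in NC, 220 and 162 CPM with siFAT1-1 and 61.1 and 104 CPM with siFAT1-2 in HN6. In HN30 it was at 19.4 and 62.8 CPM in NC, 80.4 and 110 CPM with siFAT1-1, and 13.9 and 67.1 CPM with siFAT1-2. NC itself differed more than 3-fold between its repeats in each line, by 3.21-fold in HN6 and 3.23-fold in HN30. Against NC the log2 fold change was 0.87 (SE 0.5) for siFAT1-1 and -0.35 (SE 0.5) for siFAT1-2, with edgeR adjusted p = 0.369 and 0.684.

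EIF2AK2 (PKR) was at 56.6 and 76.1 CPM in NC, 143 and 158 CPM with siFAT1-1 and 71 and 175 CPM with siFAT1-2 in HN6. In HN30 it was at 64.5 and 128 CPM in NC, 125 and 145 CPM with siFAT1-1, and 59.6 and 132 CPM with siFAT1-2. In HN6 both siFAT1-1 libraries lay above both NC libraries; in HN30 the groups overlapped, and the time 1 libraries of NC and siFAT1-2 were the low ones. The log2 fold change against NC was 0.81 (SE 0.34) for siFAT1-1 and 0.43 (SE 0.34) for siFAT1-2, with edgeR adjusted p = 0.226 and 0.438.

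TLR3, the endosomal receptor, was the least abundant member, with 20 to 122 reads per library in HN6 and 76 to 424 in HN30. In HN6 it was at 1.36 and 0.564 CPM in NC, 2.13 and 1.81 CPM with siFAT1-1, and 0.996 and 3.68 CPM with siFAT1-2. In HN30 it was at 7.84 and 10.7 CPM in NC, 6.79 and 7.26 CPM with siFAT1-1, and 2.19 and 7.38 CPM with siFAT1-2. In HN30 all 4 KD libraries lay below both NC libraries, and in HN6 3 of the 4 KD libraries lay above both NC libraries. The log2 fold change over both lines was 0.16 (SE 0.55) for siFAT1-1 and 0.064 (SE 0.56) for siFAT1-2 against NC, with edgeR adjusted p = 0.907 and 0.953.

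The adaptors and IRF3, which are known mainly as constitutively expressed genes, covered narrower ranges. MAVS spanned 207 to 349 CPM in HN6 and 158 to 266 CPM in HN30, a highest-to-lowest ratio of 1.69 in each line. TICAM1 spanned 29.9 to 67.9 CPM in HN6 and 43.5 to 76.1 CPM in HN30, ratios of 2.27 and 1.75. IRF3 spanned 65.8 to 157 CPM in HN6 (2.39) and 64.9 to 76.9 CPM in HN30 (1.19). For comparison the same ratio was 4.85 and 8.61 for DDX58, 8.4 and 7.95 for IFIH1, 8.16 and 4.11 for DHX58, 3.6 and 7.93 for IRF7 and 3.09 and 2.42 for EIF2AK2, the last of which lies close to TICAM1 and IRF3 in HN6. The fold changes of MAVS, TICAM1 and IRF3 against NC lay between -0.44 and -0.11 on the log2 scale for the siRNAs, the lowest for IRF3 with siFAT1-2 (SE 0.18, unadjusted p = 0.0299, edgeR adjusted p = 0.131).

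TBK1, the kinase at which both routes meet, was even across HN30, at 40.2 and 45.9 CPM in NC, 51 and 47.6 CPM with siFAT1-1 and 73.1 and 50.7 CPM with siFAT1-2. In HN6 it was at 22.7 and 23.1 CPM with siFAT1-1 and 52.3 and 39.8 CPM with siFAT1-2, but at 54.3 and 5.13 CPM (1592 and 182 reads) in the NC repeats. The low value is that of the library with few reads of AT-rich genes, and TBK1 is the most AT-rich member. KD against NC in HN6 was 0.13 (SE 0.63) on the log2 scale with all libraries (edgeR adjusted p = 0.952), 2.65 without NC repeat 1 (edgeR adjusted p = 0.00138) and -0.74 without NC repeat 2, so its direction in HN6 depended on which NC library was kept.

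With FAT1 KD pooled over both siRNAs, the question the study asked of all genes, none of the 10 members passed an edgeR adjusted p of 0.05, against 0.522% of all genes tested. In this fit, which had no block for the repeat time, none had an unadjusted p under 0.05, beside 2042 of the 14360 genes tested. For the same comparison limma-voom and DESeq2 called 0 of 10 as well. The estimates ran from -0.32 for IRF3 (SE 0.17, edgeR adjusted p = 0.406) to 1.04 for DDX58 (SE 0.52, edgeR adjusted p = 0.387), with EIF2AK2 at 0.63 (SE 0.31, edgeR adjusted p = 0.381). Their median was 0.27, beside 0.022 over all genes tested, and 7 of the 10 were above 0. Within HN6 edgeR called 0 of 10 (0.00696% of all genes). At an unadjusted p under 0.05 were 2 of 10, EIF2AK2 at 1.04 and IRF3 at -0.53, beside 1993 of the 14360 genes tested. Without HN6 NC repeat 2 they were at 1.27 and -0.27, and with the GC dependence removed at 0.45 and -0.3. Within HN30 edgeR called 0 of 10 (0.0557% of all genes), with 0 at an unadjusted p under 0.05, beside 2006 of 14360. The interaction of cell line and KD was called for 0 of 10 members and 0% of all genes. Of the members, 0 had an unadjusted p under 0.05 there, beside 576 of 14360. In these 3 comparisons limma-voom and DESeq2 also called 0 of 10.

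The siRNAs were then taken separately, since each is a different duplex. FAT1 itself was at -2 (SE 0.32) with siFAT1-1 and -1.27 (SE 0.31) with siFAT1-2 against NC on the log2 scale. Compared directly, FAT1 was at -0.73 for siFAT1-1 against siFAT1-2 (SE 0.31, edgeR adjusted p = 0.118). The duplex and the depth of knockdown therefore cannot be told apart in what follows. For siFAT1-1 against NC, edgeR called 0 of the 10 members, against 3.15% of all genes. Here limma-voom called 0 and DESeq2 called 1, which was DDX58 (log2 fold change 1.52, DESeq2 adjusted p = 0.0321). The share of all genes that DESeq2 called is not given here. DDX58 and EIF2AK2 had an unadjusted edgeR p under 0.05, 0.0128 and 0.0345, beside 2694 of the 14360 genes tested. Without HN6 NC repeat 2 the estimates were 1.36 for IRF7, 1.35 for DDX58, 1.22 for DHX58, 0.78 for IFIH1 and 0.77 for EIF2AK2. By thresholds modelled on the study's, here an unadjusted edgeR p under 0.05 with an absolute log2 fold change above 1, DDX58 was the 1 member counted, and 5.77% of all genes were. For siFAT1-2 against NC, edgeR, limma-voom and DESeq2 each called 0 of 10, where edgeR called 11.3% of all genes. IRF3 alone had an unadjusted edgeR p under 0.05, beside 4075 of the 14360 genes tested. The comparisons of each siRNA with NC share the NC libraries.

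The direct comparison of siFAT1-1 with siFAT1-2 does not take NC as its reference. The NC libraries were still part of the fit and entered its estimate of the spread. The cytosolic sensors and IRF7 had the highest estimates in favour of siFAT1-1: DHX58 at 1.38 on the log2 scale (SE 0.46, 2.61-fold, edgeR adjusted p = 0.0579), IRF7 at 1.22 (SE 0.51, 2.33-fold, edgeR adjusted p = 0.113), IFIH1 at 1.2 (SE 0.56, 2.3-fold, edgeR adjusted p = 0.156) and DDX58 at 1.11 (SE 0.5, 2.16-fold, edgeR adjusted p = 0.146). In edgeR 0 of the 10 passed, against 16.8% of all genes. An unadjusted p under 0.05 was found for 3 (DHX58, IRF7 and DDX58), beside 4790 of the 14360 genes tested. The same 3 met the thresholds on unadjusted p and fold change, as did 12.6% of all genes. For these 4 genes both siFAT1-1 libraries lay above both siFAT1-2 libraries in each line, a layout that 17.8% of all genes had. EIF2AK2 (0.38, SE 0.34), IRF3 (0.23, SE 0.18), MAVS (0.13, SE 0.17), TLR3 (0.095, SE 0.55) and TICAM1 (-0.022, SE 0.27) were nearer to 0, and TBK1 was at -0.66 (SE 0.48).

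The repeats are labelled time 1 and time 2, and comparing libraries of the same time label changed this comparison. That such libraries belong together is a reading of the labels, which do not state it. With the repeat as a block within each line, 3 of the 10 members passed in favour of siFAT1-1, against 10.7% of all genes: DHX58 at 1.59 (SE 0.37, edgeR adjusted p = 0.0179), IRF7 at 1.51 (SE 0.36, edgeR adjusted p = 0.0201) and DDX58 at 1.38 (SE 0.41, edgeR adjusted p = 0.0442). IFIH1 was at 1.5 (SE 0.52, edgeR adjusted p = 0.0699). With the GC dependence of each library removed as well, 5 of 10 passed, against 19.3% of all genes, with IFIH1 at 1.63 (edgeR adjusted p = 0.0394) and EIF2AK2 at 0.86 (edgeR adjusted p = 0.0234) added to them. In that fit DDX58 also passed for siFAT1-1 against NC, at 1.62 (SE 0.36, edgeR adjusted p = 0.0294), where 5.61% of all genes were called. DESeq2 without the block called DHX58 and IRF7, and limma-voom called DHX58 and IFIH1. The shares of all genes that DESeq2 and limma-voom called are not given here, so these counts cannot be set against them. These fits differ in what they count as spread, and the members called went from 0 to 5 between them.

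**Figure D2:**
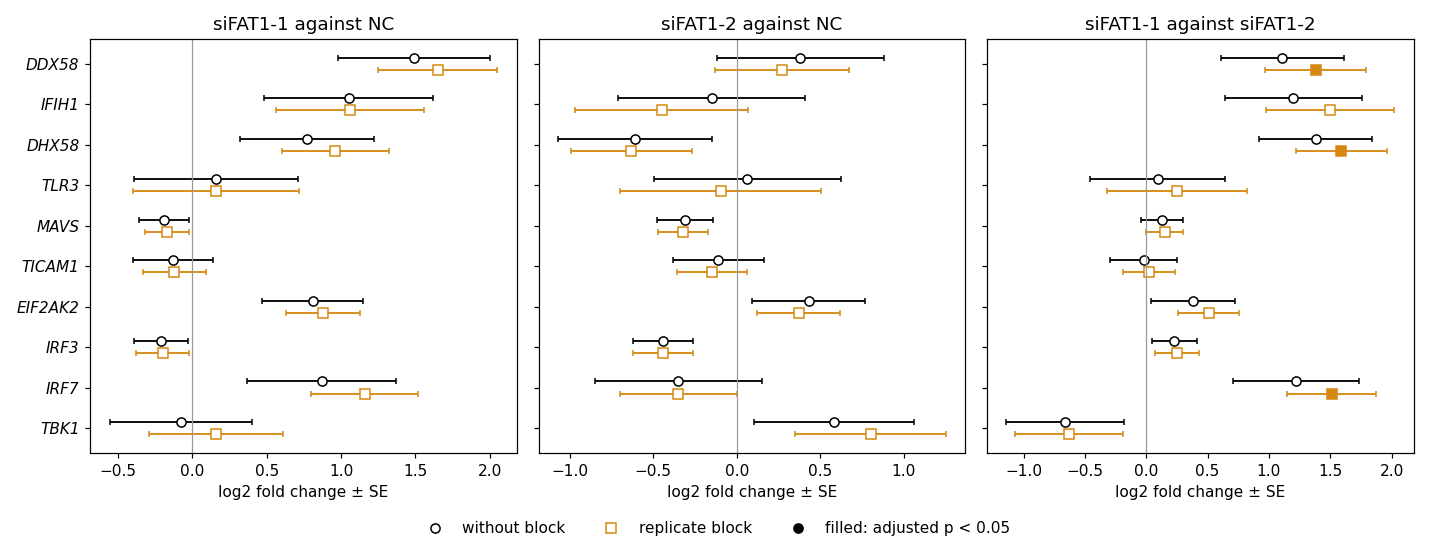
Log2 fold change of the 10 genes with its standard error for siFAT1-1 against NC, siFAT1-2 against NC and siFAT1-1 against siFAT1-2, over both lines. Black circles are the fit without and orange squares the fit with the repeat time as a block; filled symbols, with an edgeR adjusted p under 0.05, are DHX58, IRF7 and DDX58 with the block in the comparison of the siRNAs.

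Set side by side within a line and a time, the ratios show where the difference lay. For siFAT1-1 over siFAT1-2, DDX58 had log2 ratios of 2.28 (HN6) and 2.74 (HN30) at time 1 and of 0.0093 and 0.66 at time 2. IFIH1 had 3.04 and 2.48 at time 1 and 0.32 and 0.86 at time 2, and IRF7 had 1.85 and 2.54 at time 1 and 0.63 and 0.71 at time 2. DHX58 had 3.03 and 1.51 at time 1 and 0.94 and 0.77 at time 2. These 4 were higher with siFAT1-1 in 4 of 4 time-matched pairs, as were 23.0% of all genes tested. Each of their ratios was smaller at time 2 than at time 1 in the same line; with 1 library per condition and time, this was not tested.

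For siFAT1-1 over NC, DDX58 (0.79 to 2.07), IFIH1 (0.41 to 2.13) and EIF2AK2 (0.17 to 1.34) were higher in 4 of 4 time-matched pairs, a layout that 14.1% of all genes had. DHX58 and IRF7 were higher in 3 of 4, with log2 ratios of -0.088 and -0.29 in HN6 at time 2. For siFAT1-2 over NC, DHX58, MAVS and IRF3 were lower in 4 of 4 pairs, with DHX58 between -1.16 and -0.093, as were 21.0% of all genes. IFIH1 was lower with siFAT1-2 at time 1 in each line, at -1.79 in HN6 and -1.64 in HN30, but at 1.81 and -0.45 at time 2.

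The repeats of a condition differed by several fold for the same genes. In HN30, time 2 was above time 1 for siFAT1-2 by 5.45-fold in DDX58, 4.83-fold in IRF7, 4.39-fold in IFIH1 and 3.36-fold in TLR3. In HN30 NC the ratio was 3.13 for DDX58, 3.23 for IRF7, 1.92 for IFIH1 and 1.99 for EIF2AK2. With siFAT1-1 in HN30 the ratio was 1.29 for DDX58, 1.37 for IRF7, 1.42 for IFIH1 and 1.16 for EIF2AK2. The siFAT1-1 libraries were thus high at both times, while the NC and siFAT1-2 libraries in HN30 were low at time 1 and higher at time 2.

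In HN6 the siFAT1-2 libraries repeated this, with time 2 above time 1 by 6.73-fold for IFIH1, 3.69-fold for TLR3, 3.22-fold for DHX58 and 2.91-fold for DDX58. The HN6 NC libraries were mixed: DHX58 and IRF7 were 2.95-fold and 3.21-fold higher at time 2 and EIF2AK2 1.34-fold, whereas DDX58 (0.85-fold), TLR3 (0.414-fold), IFIH1 (0.555-fold) and TICAM1 (0.728-fold) were lower. EIF2AK2 is AT-rich and TICAM1 GC-rich, and the part of GC content in this order was not tested. The siFAT1-2 library of time 1 was the lowest of the 6 libraries for 6 members in HN6 and for 7 members in HN30. Over all genes it was the lowest for 25.3% and 24.2%. No other library was the lowest for more than 2 members.

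**Figure D3:**
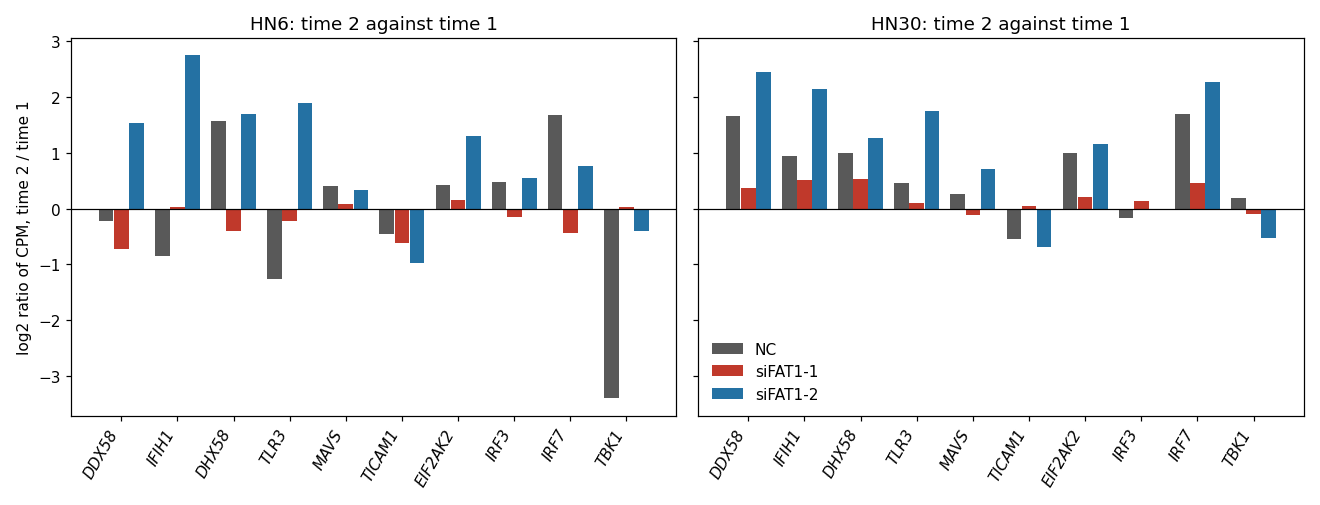
Log2 ratio of CPM at time 2 over time 1 for each of the 10 genes in HN6 (left) and HN30 (right), 1 library each; grey bars are NC, red bars siFAT1-1 and blue bars siFAT1-2. The blue bars of DDX58, IFIH1, DHX58, TLR3, EIF2AK2 and IRF7 are above 0 in both lines, and the grey bar of TBK1 in HN6 reaches -3.4.

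The members did not vary independently. With the mean of each line removed, the 10 pairs among DDX58, IFIH1, DHX58, IRF7 and EIF2AK2 had Pearson's r of 0.68 to 0.91 over the 12 libraries on the log2 CPM scale. DDX58 and EIF2AK2 had the highest (0.91). TLR3 had r of 0.81 with IFIH1, 0.71 with DDX58 and 0.3 with DHX58. TICAM1 had negative values with 7 of the other members, down to -0.79 with EIF2AK2. These values share library, depth, time and GC dependence and are a description only.

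Over all genes tested, those most like a member by the same measure included known interferon-stimulated genes such as IFIT2, XAF1, OAS2, OASL and MX1. IFIT2 (0.982), PHKB (0.942) and IFI44 (0.938) were nearest to DDX58. XAF1 (0.962) was nearest to IFIH1, followed by LOC730183 (0.934) and PHKB (0.933). OAS2 (0.979), USP18 (0.976) and ADAR (0.972) were nearest to DHX58. OASL (0.97), MX1 (0.966) and JRK (0.964) were nearest to IRF7. ZCCHC2 (0.948), IFI44 (0.946) and SPATS2L (0.933) were nearest to EIF2AK2. TLR3 had other neighbours, CAPRIN1 (0.963), ZNF391 (0.946) and SYNE1 (0.943).

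A list of 21 interferon-stimulated targets downstream of these members was followed next to them. Relative to the NC library of time 1, the median target was higher by 2.38 and 1.84 on the log2 scale with siFAT1-1 in HN6 (time 1 and time 2) and by 1.58 and 2 in HN30. It was at 1.44 in NC of time 2 in HN6 and 1.57 in HN30. With siFAT1-2 it was at -1.37 and 1.31 in HN6 and -1.1 and 1.15 in HN30, below the NC library of the same time in both lines at both times, by more at time 1. MX1, an antiviral GTPase, was at 138 and 691 CPM in NC, 1170 and 680 CPM with siFAT1-1 and 89.1 and 321 CPM with siFAT1-2 in HN6. In HN30 MX1 was at 126 and 450, 539 and 829, and 55.6 and 340 CPM in the same order.

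**Figure D4:**
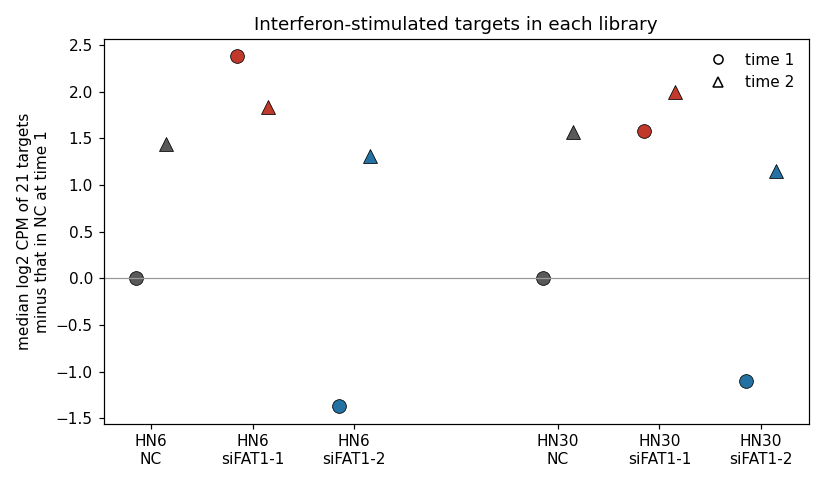
Median log2 CPM of 21 interferon-stimulated targets in each library, minus that of the time 1 NC library of the same line. Circles are time 1 and triangles time 2; the siFAT1-1 points lie between 1.58 and 2.38 and the siFAT1-2 points of time 1 at -1.37 and -1.1.

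For siFAT1-1 against siFAT1-2, 6 of the 21 targets passed as higher and 0 as lower in edgeR, against 9.62% of all genes higher, with a median of 1.47 beside -0.019 over all genes. With the replicate block 15 of 21 passed, against 10.7% of all genes. The 6 included CMPK2 (3.43, SE 1.02, edgeR adjusted p = 0.0389), CCL5 (2.62, SE 0.83, edgeR adjusted p = 0.0496, and 0.0519 with the block) and IFI27 (2.02, SE 0.47, edgeR adjusted p = 0.0138). For siFAT1-1 against NC 0 of 21 passed in edgeR, with a median of 1.05. At an unadjusted p under 0.05 were 7 targets, beside 2694 of the 14360 genes tested. With the block 2 targets passed as higher, beside 150 of 14360. For siFAT1-2 against NC the median was -0.51, and ISG20, an antiviral exonuclease, fell by 1.09 (SE 0.31, edgeR adjusted p = 0.0449) as the 1 target that passed. Over all genes 7.12% passed as lower there.

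Interferon mRNA itself was scarce. IFNB1, the interferon that IRF3 classically induces, had 0 to 8 reads per library, at most 0.246 CPM, with 5 of 12 libraries at 0; a count of 0 allows up to 3 reads. IFNL1, an epithelial type of interferon, had 45 and 8 reads with siFAT1-1, 6 and 25 in NC and 0 and 3 with siFAT1-2 in HN6, and 10 and 35, 2 and 18, and 2 and 18 reads in HN30. IFNL3 had 35, 22, 1 and 4 reads with siFAT1-1 (HN6 time 1 and 2, then HN30), 0, 2, 0 and 0 with siFAT1-2, and 0, 8, 0 and 2 in NC. It passed the filter on low counts only through the HN6 siFAT1-1 libraries, where it was high, so its test is not read. IFNL2 had up to 22 reads and IFNK up to 2. IFNE had 49 to 205 reads and IFNA1 4 to 23 in the HN30 libraries, and both had 0 in all 6 HN6 libraries. The receptor genes were plentiful, with IFNAR1 at 35 to 110 CPM and IFNLR1 at 17.1 to 40.7 CPM. IFNAR2, a receptor subunit for type I interferon, fell by 0.77 with siFAT1-1 (SE 0.16, edgeR adjusted p = 0.0248) and by 0.61 with siFAT1-2 (SE 0.16, edgeR adjusted p = 0.0328) against NC.

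Of 15 other nucleic acid sensors, 13 could be tested, and TLR7 and TLR8 had no read in any library. For siFAT1-1 against siFAT1-2 their median was 1.17, beside -0.019 over all genes. Of the 13, 12 were above 0, as were 6987 of the 14360 genes tested. In edgeR 1 passed as higher, against 9.62% of all genes, or 7 with the replicate block, against 10.7%. The 1 was ZBP1, a sensor of Z-form nucleic acids, at 3.45 (SE 0.54, edgeR adjusted p = 0.00243). It had 11.3, 5.25, 16.3 and 21.6 CPM with siFAT1-1 (HN6 time 1 and 2, then HN30), 0.36, 1.42, 0.721 and 2.27 CPM with siFAT1-2, and 1.06, 3.33, 2.91 and 5.81 CPM in NC. OAS2 (9.43 to 653 CPM in HN6) and OASL (7.76 to 222 CPM in HN30), an enzyme that double-stranded RNA activates and a relative of it, were at 2.4 and 2.16 on the log2 scale for siFAT1-1 against siFAT1-2, with edgeR adjusted p = 0.0739 and 0.0674, and 0.0153 and 0.0149 with the block.

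Among 18 cofactors and regulators of RIG-I and MDA5, ZCCHC3, which helps RIG-I and MDA5 bind RNA, rose with both siRNAs. It was at 26 to 42.7 CPM in the 4 NC libraries and 51.1 to 76.3 CPM in the 8 KD libraries, without overlap in either line. KD against NC was 0.95 (SE 0.18, edgeR adjusted p = 0.0313), and it was the 1 of 18 that passed there, against 0.522% of all genes. With the block its edgeR adjusted p was 0.0763. For siFAT1-2 against NC, where 11.3% of all genes passed, 1 rose and 3 fell, namely DHX15 by 1.77 (SE 0.22, edgeR adjusted p = 0.00159), G3BP1 by 0.84 (SE 0.2, edgeR adjusted p = 0.0229) and NLRX1 by 0.63 (SE 0.18, edgeR adjusted p = 0.0424). DHX15, a helicase that works with MAVS, was at 29.7 to 57.4 CPM in the 4 siFAT1-2 libraries and 107 to 221 CPM in NC, and was higher with siFAT1-1 than with siFAT1-2 by 1.55 (SE 0.22, edgeR adjusted p = 0.00143).

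Of 12 transcription factors downstream, 4 passed as lower with siFAT1-2 against NC and 0 as higher, where 7.12% of all genes passed as lower. RELA and NFKB1, the NF-kappa B subunits that act beside IRF3, fell by 1.32 (SE 0.19, edgeR adjusted p = 0.00312) and 1.38 (SE 0.19, edgeR adjusted p = 0.00263). IRF1 fell by 1.44 (SE 0.3, edgeR adjusted p = 0.013). RELA was at 55.2 to 97.9 CPM in the 4 siFAT1-2 libraries and 113 to 287 CPM in NC. For siFAT1-1 against siFAT1-2, 5 of the 12 passed as higher and 0 as lower, where 9.62% of all genes passed as higher. Among the 5 was RELA (1.11, SE 0.19, edgeR adjusted p = 0.0036). For siFAT1-1 against NC 0 of 12 passed in edgeR, with 4 at an unadjusted p under 0.05, beside 2694 of the 14360 genes tested.

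In the complex around TBK1, 2 of 15 genes passed as higher and 1 as lower for siFAT1-2 against NC, 3 of 15 beside 11.3% of all genes. These were TBKBP1 (1.34, SE 0.36, edgeR adjusted p = 0.0335, and 0.0544 with the block), an adaptor of TBK1, CHUK (0.8, SE 0.2, edgeR adjusted p = 0.0274) and IKBKE, the sister kinase of TBK1, which fell by 1.05 (SE 0.25, edgeR adjusted p = 0.0215). For siFAT1-1 against NC 0 of 15 passed in edgeR, with 2 at an unadjusted p under 0.05, beside 2694 of the 14360 genes tested. UNC93B1, which carries endosomal receptors such as TLR3 from the endoplasmic reticulum, fell by 1.16 with siFAT1-1 (SE 0.23, edgeR adjusted p = 0.0176). It was the 1 of 11 endosomal and Toll-like receptor partners that passed there, against 3.15% of all genes. Of 15 PKR partners and integrated stress response genes, 1 passed as lower with siFAT1-1 (EIF2AK4 by 0.69, SE 0.16, edgeR adjusted p = 0.0422) and 1 as higher with siFAT1-2 (EIF2S1, which encodes the PKR substrate, at 0.41, SE 0.12, edgeR adjusted p = 0.0447, and 0.0559 with the block). Over all genes 3.15% passed with siFAT1-1 and 11.3% with siFAT1-2, in either direction.

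Between the lines, over all treatments, 6 of the 10 members passed in edgeR, a share close to the 56.6% of all genes that passed. DDX58 was higher in HN30 by 2.05 on the log2 scale (SE 0.43, 4.13-fold, edgeR adjusted p = 0.00146), TLR3 by 2.02 (SE 0.47, 4.05-fold, edgeR adjusted p = 0.00321) and IFIH1 by 1.66 (SE 0.47, 3.16-fold, edgeR adjusted p = 0.00971). DHX58 was lower in HN30 at -1.77 (SE 0.38, edgeR adjusted p = 0.00181), as were IRF7 at -1.23 (SE 0.41, edgeR adjusted p = 0.0235) and IRF3 at -0.62 (SE 0.15, edgeR adjusted p = 0.00337). By the thresholds on unadjusted p and fold change 5 members were counted, all of these but IRF3, against 32.5% of all genes. Of the 3 RIG-I-like sensors, DHX58 was lower in HN30 and DDX58 and IFIH1 higher, with DHX58 at 4.76 to 38.8 CPM in HN6 and 2.51 to 10.3 CPM in HN30, and DDX58 at 22.5 to 109 and 44 to 378 CPM.

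MAVS was at -0.32 (SE 0.14, edgeR adjusted p = 0.0707), and at -0.32 with the replicate block (SE 0.12, edgeR adjusted p = 0.0476). TBK1 (0.69, SE 0.39), TICAM1 (0.28, SE 0.22) and EIF2AK2 (0.0045, SE 0.28) did not pass. TBK1 passed with the GC dependence removed (0.84, edgeR adjusted p = 0.0233), with the block as well (0.91, edgeR adjusted p = 0.00502) and without HN6 NC repeat 1 (1.21, edgeR adjusted p = 0.0115). Without HN6 NC repeat 2, IRF7 was at -0.92 (edgeR adjusted p = 0.0616) and the other 5 still passed; without HN6 siFAT1-2 repeat 2, IRF7 was at -1.15 (edgeR adjusted p = 0.0527). In the 4 NC libraries alone 3 of the 10 passed, with DHX58, IRF3 and IRF7 no longer among them. The share of all genes that passed in that fit is not given here.

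**Figure D5:**
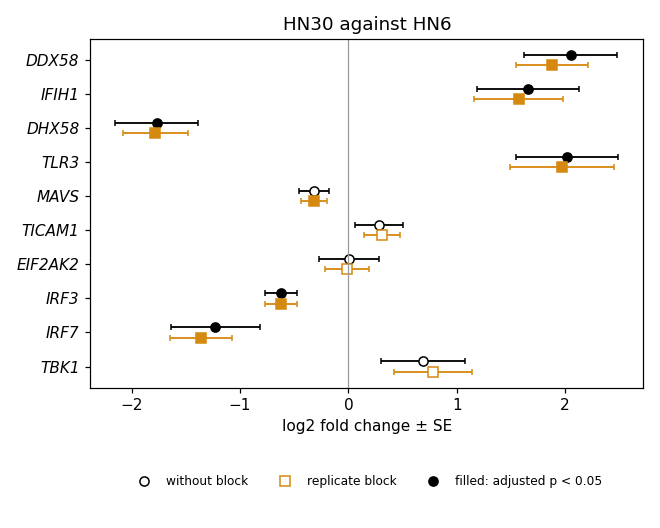
Log2 fold change of the 10 genes for HN30 against HN6 over all treatments, with its standard error; black circles without and orange squares with the repeat time as a block, filled where the edgeR adjusted p was under 0.05. DDX58, TLR3 and IFIH1 lie at 1.66 to 2.05, to the right of 0, and DHX58, IRF7 and IRF3 to the left.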

How the data were processed

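The authors removed low-quality, duplicated and poly-N reads, mapped 150-bp paired reads to hg38 and deposited whole-number counts per gene for the 12 libraries. The submitters' processing notes name HISAT2 and featureCounts; annotation and strand use are not given in the sources used here, so overlapping and antisense genes are uncertain. Group names follow the labels' 2 knockdown duplexes, called sh1 and sh2 in the sample titles and siRNAs elsewhere. No column of per-sample values was left out (0).

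Counts were tested with edgeR 4.0.16 in R 4.3.3: TMM factors (0.896 to 1.06), filterByExpr over the 6 conditions with a minimum count of 10, and the quasi-likelihood F-test with cell line as a term, or with a mean per condition for the comparisons within a line and the interaction. P-values were adjusted by Benjamini-Hochberg over all 14360 genes. limma 3.58.1 (voom) and DESeq2 1.42.0 were alternatives. CPM used TMM-scaled totals; log2 CPM used a prior count of 2; lengths are the union of exons in GENCODE 44. GC values come from its transcripts, and GC dependence was removed by a lowess of each library against the mean of its line (span 0.3). Total counts of 26430049 to 47639010 make counting error small for all members but TLR3 and the interferons; intervals were not computed, and the repeats set the precision. P-values measure the spread between these libraries. The steps were tested on simulated counts.

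The members, lists and rules were chosen with earlier results of these data known. Named genes were the members, FAT1, the interferon genes and, from each list, at most the 3 with the largest absolute log2 fold change that passed in a comparison; genes that spell out a count of 5 or fewer, and OAS2, OASL and MX1, were named after their values were seen. Repeat numbers mark separate times in the labels and so pair the libraries of a line. The correlation of paired deviations was 0.08, 0.216 and 0.221 in HN6 and -0.0312, 0.393 and -0.0252 in HN30. The corrections for GC content were added after the data were seen. The siRNA sequences and the proteins are not reported here.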

Additional observations from a re-analysis of the deposited data

Results flagged for a closer look

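TLR3 differed in direction between the lines with FAT1 KD. Every KD library lay above the mean of the NC libraries in HN6 and below it in HN30: KD against NC was 1.16 (SE 0.65, edgeR adjusted p = 0.462) in HN6 and -0.68 (SE 0.57, edgeR adjusted p = 0.671) in HN30. The difference itself, the interaction of cell line and KD, was -1.84 (SE 0.86, unadjusted p = 0.0586, edgeR adjusted p = 0.979) and did not pass. In HN6 the mean of NC rests on 40 and 20 reads, the smaller from NC repeat 2, the library with few reads of AT-rich genes, and TLR3 has 37.6% GC; KD against NC in HN6 was 0.65 and the interaction -1.33 without that library, and 0.66 and -1.37 with the GC dependence removed. With 1 library left out in turn, KD in HN6 ran from 0.55 (without siFAT1-2 repeat 2) to 1.91 (without NC repeat 1) and the interaction from -2.59 to -1.23.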

How the results depend on the processing

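The 8 comparisons of the 10 members were recomputed under 23 settings, giving 1590 values, of which 1452 kept their direction and their side of an adjusted p of 0.05, 29 passed newly, 5 no longer passed and 104 changed sign. The count of members called for siFAT1-1 against NC went from 0 to 1 with DESeq2 and with the replicate block plus GC correction. For siFAT1-1 against siFAT1-2 it went from 0 to 1 without a filter on low counts, 2 with limma-voom, 2 with DESeq2, 3 with the replicate block and 5 with the block plus GC correction, and from 0 to 2 over the fits that left out 1 library; it was 1 without HN6 NC repeat 2 or HN6 siFAT1-2 repeat 2 and 2 without HN30 siFAT1-2 repeat 2. It went from 0 to 1 for KD in HN6 and for the interaction, both without HN6 NC repeat 1, and from 6 to 3 for HN30 against HN6 in the NC libraries alone (5 to 7 with 1 library left out, 8 with GC correction, with or without the block). The replicate block changed 1 further member call, MAVS for HN30 against HN6 (-0.32). Except where given above, the share of all genes called was not set beside these counts. The causes were not tested.

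Signs changed mostly for values near 0. For TLR3, KD against NC was -0.14 with limma-voom, -0.075 with GC correction, -0.11 with block plus GC and -0.35 without the cell line term; siFAT1-1 against NC was -0.19 without that term; and siFAT1-2 against NC was -0.47, -0.096 (block), -0.4, -0.55 and -0.52. For TBK1, siFAT1-1 against NC was 0.33 with limma-voom, 0.16 with the block and 0.16 with block plus GC, KD in HN6 -0.075 with GC correction, and the interaction -0.67 with limma-voom and -0.28 with the block. For siFAT1-2 against NC, DDX58 was -0.094 with block plus GC, and with GC correction and then block plus GC TICAM1 was 0.14 and 0.13 and EIF2AK2 -0.016 and -0.038. For siFAT1-1 against siFAT1-2, TICAM1 was 0.023 with limma-voom and 0.023 with the block, and IRF3 -0.07 and -0.053 with GC correction and block plus GC. For KD in HN6, DHX58 was 0.11 and 0.2 with the same pair and 0.096 in HN6 alone, and IRF7 0.14 with limma-voom, 0.12 with the block, 0.2, 0.34 and 0.1. For KD in HN30, IFIH1 was 0.055 in HN30 alone. The interaction for MAVS was -0.11 with GC correction and -0.11 with block plus GC. For HN30 against HN6, TICAM1 was -0.12 in the NC libraries alone, and EIF2AK2 -0.011 with DESeq2, -0.011 with its size factors, -0.015 with limma-voom, -0.014 with the block, -0.013 with GC correction and -0.0019 with block plus GC.

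With 1 library left out, KD against NC ran from -0.25 to 0.45 for TLR3, -0.29 to 0.051 for TICAM1 and -0.058 to 1.02 for TBK1. For siFAT1-1 against NC the ranges were -0.2 to 0.49, -0.3 to 0.038 and -0.41 to 0.64 for the same genes. For siFAT1-2 against NC they were -0.038 to 0.86 (DDX58), -0.87 to 0.22 (IFIH1), -0.57 to 0.5 (TLR3), -0.28 to 0.085 (TICAM1) and -0.88 to 0.14 (IRF7), and for siFAT1-1 against siFAT1-2 -0.27 to 0.83 (TLR3) and -0.2 to 0.17 (TICAM1). For KD in HN6 they were -0.77 to 0.8 (DHX58), -0.67 to 1.03 (IRF7) and -0.74 to 2.65 (TBK1). For KD in HN30 they were -0.25 to 1.64 (DDX58), -0.81 to 0.46 (IFIH1), -0.079 to 0.92 (DHX58), -0.034 to 0.5 (TICAM1), -0.17 to 0.82 (EIF2AK2) and -0.18 to 1.68 (IRF7). For the interaction they were -1.55 to 0.34 (DDX58), -0.47 to 1.1 (DHX58), -0.2 to 0.22 (MAVS), -0.44 to 1.72 (IRF7) and -2.29 to 1.09 (TBK1), and for HN30 against HN6 -0.2 to 0.25 (EIF2AK2). Depth limits TLR3 in HN6 and the interferon genes, whose read counts are small.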
